A study of Cucumis x hytivus and Cucumis hystrix and Cucumis sativus with 8 samples.

Results

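The microRNAs (miRNAs) of mature leaves were compared between 2 diploid Cucumis species, C. hystrix Chakr. and the cucumber C. sativus, cultivar BeijingJietou, which are the parents of a synthetic allotetraploid. The comparison used the 2 C. hystrix and the 2 C. sativus libraries among 8 in all, and every one of the 733 mature sequences (entries) in the deposited table was a member, each taken once. Of these, 208 held enough reads to be tested. The leaf taken was in both species the youngest one that had reached full size, and the plants grew in climate chambers at 25 °C by day and 20 °C by night with 14 h of light. The labels name no cultivar for C. hystrix. The other 4 libraries came from young and mature leaves of the allotetraploid in selfed generation 10. They were not in the contrast, but entered the choice of entries to test, the scaling and the estimate of the spread between replicates. The wider study asked how allopolyploidization alters leaf miRNAs, for which the difference between the parents is the starting point. The labels do not state whether the 2 libraries of a species came from different plants. The spread that the tests use may therefore be technical.

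In plants, a hairpin transcript is cut into a duplex of about the length listed here, and as a rule 1 strand, the guide, is loaded into an ARGONAUTE protein while the other, the star strand, is degraded. The loaded miRNA pairs with messenger RNAs, which are then cleaved or less translated. Many miRNAs in leaves are old families shared by most flowering plants that control transcription factors. Among them, miR166 limits the HD-ZIP III genes, which set the upper face of the leaf, and miR159 holds down GAMYB-like genes. miR156 and miR172 time the change from juvenile to adult leaves. These roles, and those given below, are known mainly from Arabidopsis thaliana.

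The sequences on which the comparison turned are printed below, so that variants and hairpin arms with different values can be told apart. They come from the deposited table, are given 5′ to 3′ as DNA, and carry the seed (bases 2 to 8) in capitals. Where several sequences of the table share a name, "v2" and "v3" number them by falling read number, and names ending in p3 or p5 are arms that the table predicts. The first set has the most abundant entry, miR166a, with 2 further entries of the same seed and 2 that begin 2 bases further upstream and so have another seed.
miR166a: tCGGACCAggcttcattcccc
miR166a v2: gCGGACCAggcttcattcccc
miR166e: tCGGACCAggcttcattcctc
miR166g: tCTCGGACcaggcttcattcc
miR166i-p3: tCTCGGACcaggcttcattc

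The next set has entries that were higher in both C. hystrix libraries, each with its own seed: 5 with high fold changes at a mean of at least 50 CPM, and the rarer miR171u-p5, which had no read in C. sativus. PC-169-5p is a predicted miRNA that carries no family number, PC-159-3p and PC-131-3p are longer predicted sequences, and miR171u-p5, miR156i-p3 and miR172g-p3 are predicted arms of known families.
PC-169-5p: tCGGGAATagccacacaactc
miR171u-p5: tGTTGGAAcagttcaatc
miR156i-p3: tAGTATGTgctcatttctcttt
miR172g-p3: cTGCATCGgcaatcaatgact
PC-159-3p: aGTATAGGgaccaaaatgaacatt
PC-131-3p: aTTTAAGAtttgcagtatgaactt

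The last set has entries that were lower in both C. hystrix libraries, most of them star strands, with the other strand of the same hairpin beside them. miR393a and miR393b-p3 are listed on 1 hairpin, as are miR168 and miR168-p3, miR397 and miR397-p3, and miR408 and miR408-5p. miR398a v3 is miR398a with 2 further bases at its 3′ end, so these 2 share a seed.
miR393a: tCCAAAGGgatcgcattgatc
miR393b-p3: aTCATGCCatctctttggatt
miR168: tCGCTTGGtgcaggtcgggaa
miR168-p3: cCCGCCTTgcatcaactgaat
miR397: tCATTGAGtgcagcgttgatg
miR397-p3: tCAGCGCTtcattcaatcacg
miR408: aTGCACTGcctcttccctggc
miR408-5p: cGGGGAACagacagagcatga
miR398a: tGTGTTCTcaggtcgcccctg
miR398a v3: tGTGTTCTcaggtcgcccctgtt

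The C. sativus libraries were unlike each other, and each is therefore given on its own throughout. With each sequence counted once, the libraries held 348088 and 220793 listed reads in C. hystrix, against 239730 and 99196 in C. sativus, and 456 and 353 against 505 and 335 entries had a read. Families whose sequences resemble ribosomal or transfer RNA (12 such families of the table, chosen from general knowledge and not matched to a genome here) took 11.1% and 13.7% of the reads in C. hystrix, against 17.4% in C. sativus 1 and 58.0% in C. sativus 2. Outside these families, 309452 and 190539 reads were left in C. hystrix, against 197967 in C. sativus 1 and 41627 in C. sativus 2. Spearman's rank correlation over the 208 tested entries, a description of libraries that share most of their sequences and base composition, was 0.823 between the C. hystrix libraries and 0.572 between the C. sativus libraries. C. hystrix 1 and C. sativus 1, from different species, had 0.789.

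**Figure D1:**
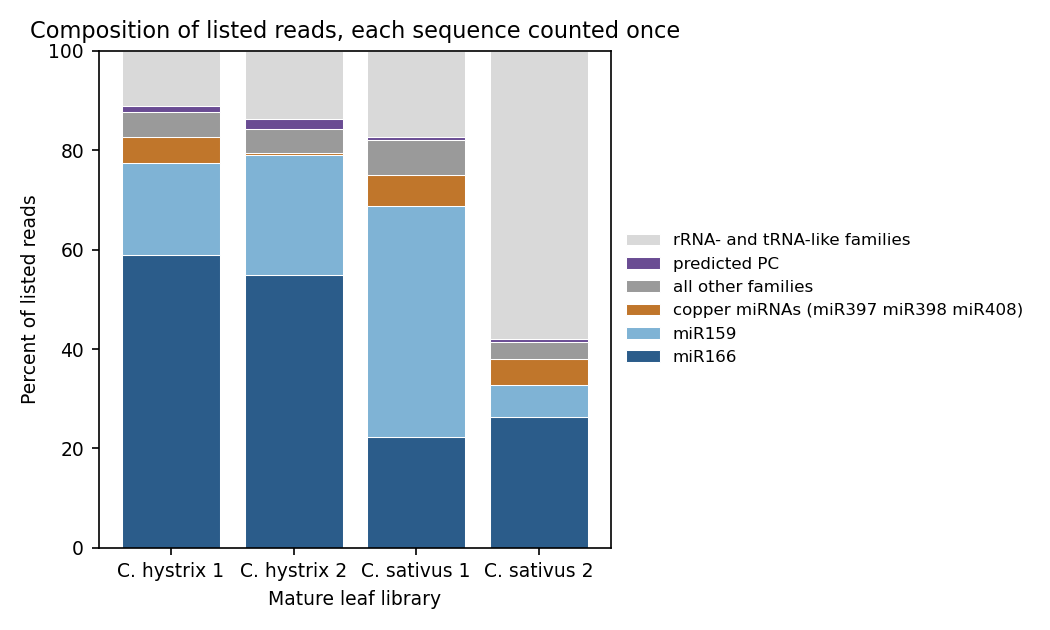
Percent of listed reads (vertical axis) by class in the 2 C. hystrix and 2 C. sativus mature leaf libraries (horizontal axis), with each sequence counted once and 1 bar per library. C. sativus 2 has 58.0% in rRNA- and tRNA-like families, and C. sativus 1 has the highest miR159 share, 46.6%.

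The share of rRNA- and tRNA-like reads averaged 12.4% in C. hystrix and 37.7% in C. sativus, a difference of -25.3 percentage points with a pooled SD of 20.3. With 2 libraries a group, the smallest p of an exact two-sided permutation test is 0.333, so that test could not pass the threshold, and none was made. The 2 C. sativus libraries were also rich in different families of this class. miR5368, which resembles ribosomal RNA, held 6.70% and 6.64% of reads in C. hystrix, against 9.30% in C. sativus 1 and 28.6% in C. sativus 2. miR2916, from the same class, held 2.32% and 3.86%, against 2.50% and 22.1%. The transfer-RNA-like miR8155 went the other way between the C. sativus libraries, with 1022 and 610 reads in C. hystrix, 3398 in C. sativus 1 and 19 in C. sativus 2. These shares rest on many reads, so that no 95% Wilson interval was wider than 0.464 percentage points to either side. Such intervals cover counting error only, since reads copied by PCR are not separate molecules.

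A pair of families filled most of the remaining reads. miR166 took 59.0% and 54.9% of listed reads in C. hystrix, against 22.2% and 26.3% in C. sativus. The groups did not overlap. With the rRNA- and tRNA-like families set aside, however, its share was 66.4% and 63.6% in C. hystrix, 26.9% in C. sativus 1 and 62.8% in C. sativus 2, so that the gap to C. sativus 2 nearly closed. miR159 took 18.3% and 24.1% in C. hystrix, 46.6% in C. sativus 1 and 6.47% in C. sativus 2, which put the C. hystrix libraries between the C. sativus ones. There were 3.22 and 2.28 reads of miR166 for each read of miR159 in C. hystrix, against 0.478 in C. sativus 1 and 4.07 in C. sativus 2. The most abundant sequence of miR159 has 20 nt and that of miR166 has 21 nt. Outside the rRNA- and tRNA-like families, 78.0% and 71.0% of reads had 21 nt in C. hystrix, against 41.3% and 72.8% in C. sativus.

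Levels are given below as CPM, read counts per 1000000 reads of a library size scaled by TMM, which assumes that most entries do not differ. The TMM factors were 0.813 and 0.770 for C. hystrix, 1.25 for C. sativus 1 and 2.00 for C. sativus 2, the library with the most rRNA- and tRNA-like reads. One read was worth 3.54 and 5.89 CPM in C. hystrix and 3.37 and 5.06 CPM in C. sativus. The median log2 fold change (C. hystrix over C. sativus) of the tested entries was -0.11 under TMM, -0.99 when libraries were scaled to all listed reads and -1.48 when they were scaled to the reads outside the rRNA- and tRNA-like families. The log2 fold changes below are printed as fitted under TMM, with no median taken off, and each would be lower under either other scaling.

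Of the 208 entries, 2 were higher in C. hystrix (0.962% of those tested) and 0 were lower (0.0%) by edgeR's quasi-likelihood test at a Benjamini-Hochberg adjusted p below 0.05. At an unadjusted p below 0.05 there were 11 higher (5.29%) and 3 lower (1.44%). DESeq2 called 2 higher (0.962%) and 1 lower (0.481%), and limma voom called 1 higher (0.481%) and 0 lower (0.0%). Leaving out a C. sativus library changed these counts sharply. Without C. sativus 1, 43 were higher (20.7%) and 4 lower (1.92%), and without C. sativus 2, 1 was higher (0.481%) and 0 lower (0.0%). With 1 library left in a group, its spread was assumed to be that of the other groups.

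PC-169-5p, the entry with the strongest call, was a C. hystrix sequence almost alone. It had 3071 and 4035 reads in C. hystrix, against 7 in C. sativus 1 and 0 in C. sativus 2, or 10880 and 23784 CPM against 23.6 and 0 CPM. The log2 fold change was 10.37 (SE 1.62, adjusted p = 0.0013, edgeR with Benjamini-Hochberg adjustment), and all 23 alternatives called it higher as well, with log2 fold changes of 9.32 to 15.34. The table places its hairpin at chr7:8370983-8371159, minus strand, on a genome build that the labels and headers do not name. Whether the locus lies in a gene was not examined, as no annotation was used, and the target of this predicted miRNA is not known here. The species of that genome is not named either. A homologous sequence that differs by a base, in either species, may therefore be missing from the list.

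miR166a, which directs the cleavage of HD-ZIP III messenger RNAs, is listed at 4 loci, one of them chr3:9416447-9416547 on the plus strand. It had 640711 and 622145 CPM in C. hystrix, against 151078 in C. sativus 1 and 83361 in C. sativus 2. The log2 fold change was 2.43 (SE 0.56, edgeR adjusted p = 0.044), and the groups did not overlap under TMM, under total-read scaling or under scaling outside the rRNA- and tRNA-like families. The call was held in 3 of 23 alternatives, with adjusted p-values from 0.00712 to 1.0 over all of them. Without C. sativus 1 the log2 fold change was 2.92 (edgeR adjusted p = 0.00712), and without C. sativus 2 it was 2.06 (edgeR adjusted p = 0.107). Its log2 fold change was 1.49 under total-read scaling and 0.86 under scaling outside the rRNA- and tRNA-like families.

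The other miR166 sequences had unequal ratios. miR166a v2 differs from miR166a by T1G, counted from 1 at the 5′ end with the base of miR166a first, a difference outside the seed. It had 31302 and 34553 CPM in C. hystrix against 4790 and 2126 CPM in C. sativus (log2 fold change 3.25, SE 0.88, edgeR adjusted p = 0.119). DESeq2 called it higher, at an adjusted p of 0.00301, as did 3 further alternatives. miR166g, which begins 2 bases upstream, had 45711 and 45865 CPM in C. hystrix and 16446 and 25422 CPM in C. sativus, with groups that overlapped under total-read scaling. There were 14.0 and 13.6 reads of miR166a per read of miR166g in C. hystrix, against 9.19 and 3.28 in C. sativus, a ratio that does not depend on scaling. miR166i-p3, 1 base shorter than miR166g, had 1881 and 2340 CPM in C. hystrix, 895 in C. sativus 1 and 14424 in C. sativus 2. It thus made up 10.9% of miR166 reads in C. sativus 2, against 0.258% and 0.327% in C. hystrix and 0.499% in C. sativus 1. miR166e, with C20T relative to miR166a, had 503 and 436 CPM in C. hystrix, 222 in C. sativus 1 and 1397 in C. sativus 2.

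**Figure D2:**
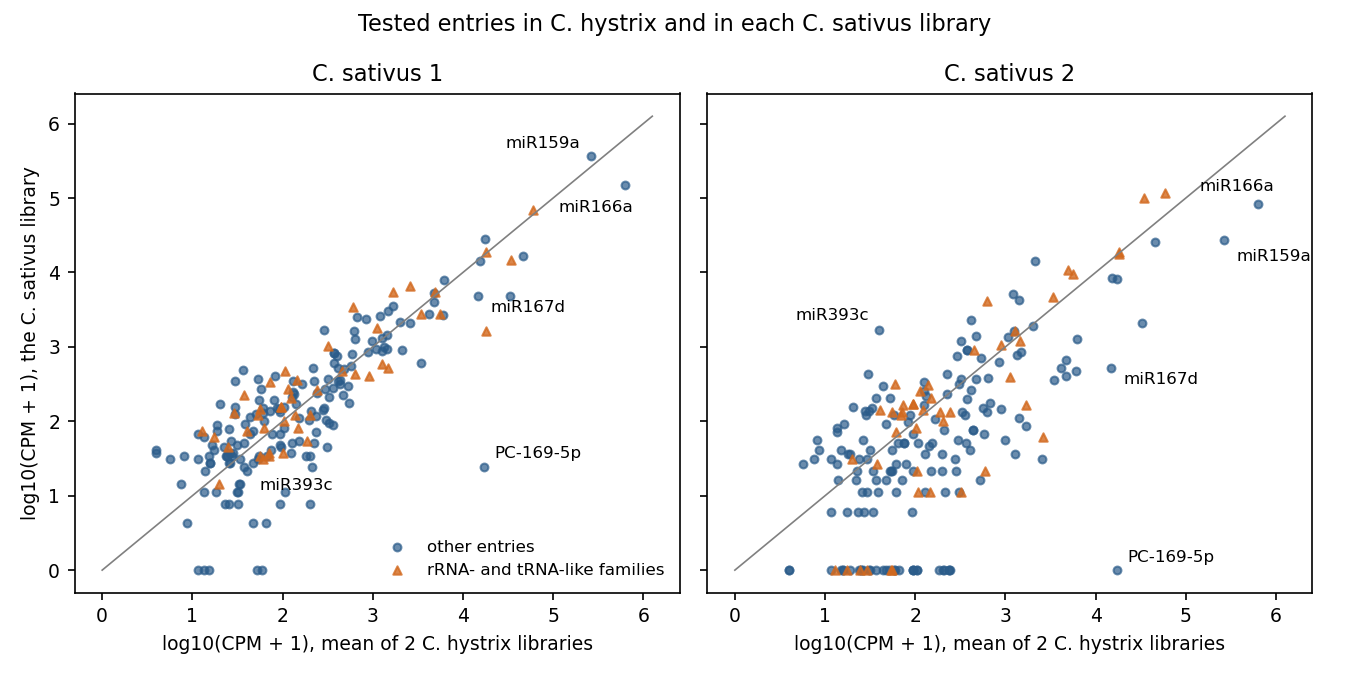
Level of each of the 208 tested entries in the C. hystrix mean (horizontal axis) and in C. sativus 1 (left) or C. sativus 2 (right, vertical axis), as log10(CPM + 1), with the line of equal levels. miR159a lies above the line in C. sativus 1 and below it in C. sativus 2, PC-169-5p lies far below it in both, and 5 entries are at 0 in C. sativus 1 against 38 in C. sativus 2.

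Counting only whether both libraries of one species lay above both of the other, 39 entries were higher in C. hystrix (18.8% of 208) and 26 were lower (12.5%). Under total-read scaling these counts were 19 (9.13%) and 48 (23.1%), and under scaling outside the rRNA- and tRNA-like families they were 16 (7.69%) and 67 (32.2%). The separation held under all 3 scalings for 16 higher entries (7.69%). For the 26 lower ones (12.5%) it had to hold, because both other scalings lower every C. hystrix value relative to every C. sativus value, so this adds no support to them. Among the 16 were miR166a and its variant v2, miR167d, miR396b, miR160a, miR172g-p3, miR156i-p3, miR171m, miR171u-p5 and PC-169-5p. Among the 26 were the star strands miR168-p3, miR393b-p3, miR397-p3, miR408-5p and miR159a-p5, miR398a v3, and the rRNA-like miR5368-p5 and miR2916. Levels described as overlapping or not, below, are TMM-scaled.

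Among separated entries with a mean of at least 50 CPM over the 4 libraries, minor strands and predicted miRNAs followed PC-169-5p in fold change. miR156i-p3, a predicted arm of the phase-change family, had 255 and 141 CPM in C. hystrix against 6.73 and 20.2 CPM in C. sativus (log2 fold change 3.88, SE 1.44, edgeR adjusted p = 0.358). miR172g-p3 had 252 and 365 CPM against 43.8 and 10.1 CPM (3.46, SE 1.20). Both were separated in every library, yet on no more than 72 reads. The predicted PC-159-3p had 152 and 248 CPM in C. hystrix and 33.7 and 0 CPM in C. sativus, and PC-131-3p had 163 and 200 CPM against 33.7 and 0 CPM. Each had 10 reads in C. sativus 1 and none in C. sativus 2, whose limit of 3 reads stands for 15.2 CPM. PC-132-5p, just under that mean and named after its values were seen, had 99.2 and 88.4 CPM in C. hystrix against 6.73 and 0 CPM in C. sativus (log2 fold change 4.49, SE 1.68, edgeR adjusted p = 0.358). The phase-change guide miR156f, a shifted form of the common miR156, had 368 and 100 CPM in C. hystrix against 70.7 and 0 CPM in C. sativus, so that C. hystrix 2 was close to C. sativus 1.

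One entry was found in 1 species only, by the rule of at least 10 reads in both libraries of one species and 0 in both of the other. This was miR171u-p5, a predicted arm of the GRAS-regulating miR171 family at chr1:241165-241252 on the minus strand, with 11 and 13 reads in C. hystrix, against 0 and 0 in C. sativus. It was not called (log2 fold change 6.99, SE 2.21, edgeR adjusted p = 0.303), and 0 of 23 alternatives called it. The rule that picked it used these same reads. Against a limit of 3 reads over both C. sativus libraries, under TMM, the lower bound was 8.76-fold, with the C. hystrix reads taken as exact. That bound would be lower under either other scaling. miR171u-p5 differs from miR171c-p5 by A10G, with the base of miR171u-p5 first. miR171c-p5 had 53.1 and 0 CPM in C. hystrix against 33.7 and 137 CPM in C. sativus. No entry met the rule for C. sativus. With any read counted, 19 entries had reads in both C. hystrix and neither C. sativus library, 24 in both C. sativus and neither C. hystrix library, and 202 in all 4. None of the 24 had more than 4 reads in its lower library.

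**Figure D3:**
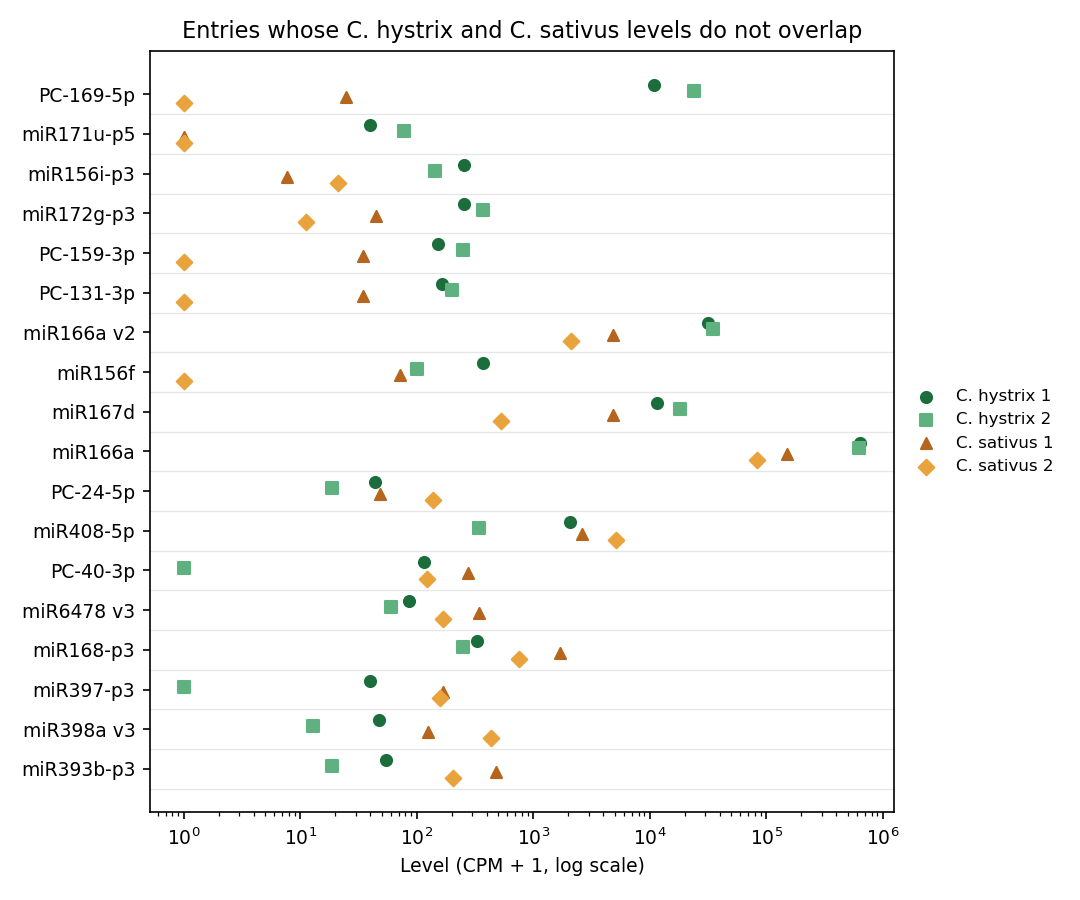
Level (CPM + 1, log axis) of the called entries, the 1-species entry and the most extreme entries whose groups do not overlap, in order of fold change, with 1 symbol per library. PC-169-5p is at 10880 and 23784 CPM in C. hystrix and at 23.6 and 0 CPM in C. sativus, and miR393b-p3 at 53.1 and 17.7 CPM against 481 and 202 CPM.

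Among the 8 lowest entries by the naming rule was miR393b-p3, a star strand. This strand, the partner of an miRNA that trims TIR1-type auxin receptors, had 53.1 and 17.7 CPM in C. hystrix against 481 and 202 CPM in C. sativus (log2 fold change -3.23, SE 1.21, edgeR adjusted p = 0.358). Its guide, miR393a, had 120 and 525 CPM in C. hystrix against 94.2 and 1215 CPM in C. sativus and overlapped. miR168-p3 is the partner of the miRNA that restrains AGO1, the main slicer of the pathway itself. It had 326 and 248 CPM in C. hystrix against 1700 and 759 CPM in C. sativus (-2.10, SE 1.03, edgeR adjusted p = 0.799). The guide miR168 had 1403 and 1108 CPM against 878 and 1630 CPM, a log2 fold change of 0.00 (SE 0.99).

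Among the copper-responsive hairpins, the star strand miR397-p3 had 39.0 and 0 CPM in C. hystrix against 168 and 157 CPM in C. sativus. miR408-5p had 2083 and 342 CPM against 2598 and 5167 CPM, so that C. hystrix 1 came close to C. sativus 1. miR398a v3, which is miR398a with a longer 3′ end, had 46.1 and 11.8 CPM in C. hystrix against 125 and 435 CPM in C. sativus (-3.21, SE 1.32, edgeR adjusted p = 0.46). It is also listed without a genome position. The remaining low entries by the naming rule were the tRNA-like miR6478 v3 and the predicted PC-40-3p and PC-24-5p, with log2 fold changes of -1.81, -1.75 and -1.56 and no adjusted p under 0.952.

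Read ratios within 1 hairpin do not depend on scaling or on the other families of a library. The table lists 161 hairpin loci with 2 entries, and 14 of them (13 distinct pairs) had at least 10 reads of each entry in all 4 libraries. The ratio of the 2 entries was higher in both C. hystrix libraries at 4 loci, lower at 5 and overlapping at 5. Which entry stands first sets the direction, so these counts show no common trend. The pair of miR166f-p5 and miR166a is counted more than once. Beside these counts, TMM-scaled levels of single entries were separated for 39 of 208 higher (18.8%) and 26 lower (12.5%). For miR168 there were 4.30 and 4.48 guide reads per star read in C. hystrix, against 0.517 in C. sativus 1 and 2.15 in C. sativus 2. For miR396b, a regulator of growth-regulating factors, there were 1.33 and 1.57 reads per read of miR396e-p3 in C. hystrix, against 0.965 and 0.917 in C. sativus. Per read of the same miR396e-p3, miR396e went the other way, with 0.213 and 0.116 reads in C. hystrix against 0.9 and 0.341 in C. sativus. The ratio of the passenger-side miR166g-5p to miR166a v2 was 0.115 and 0.0130 in C. hystrix against 0.447 and 0.890 in C. sativus. Sequences such as miR396e-p3 and miR166a are listed on several hairpins, so these ratios mix the output of those loci.

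**Figure D4:**
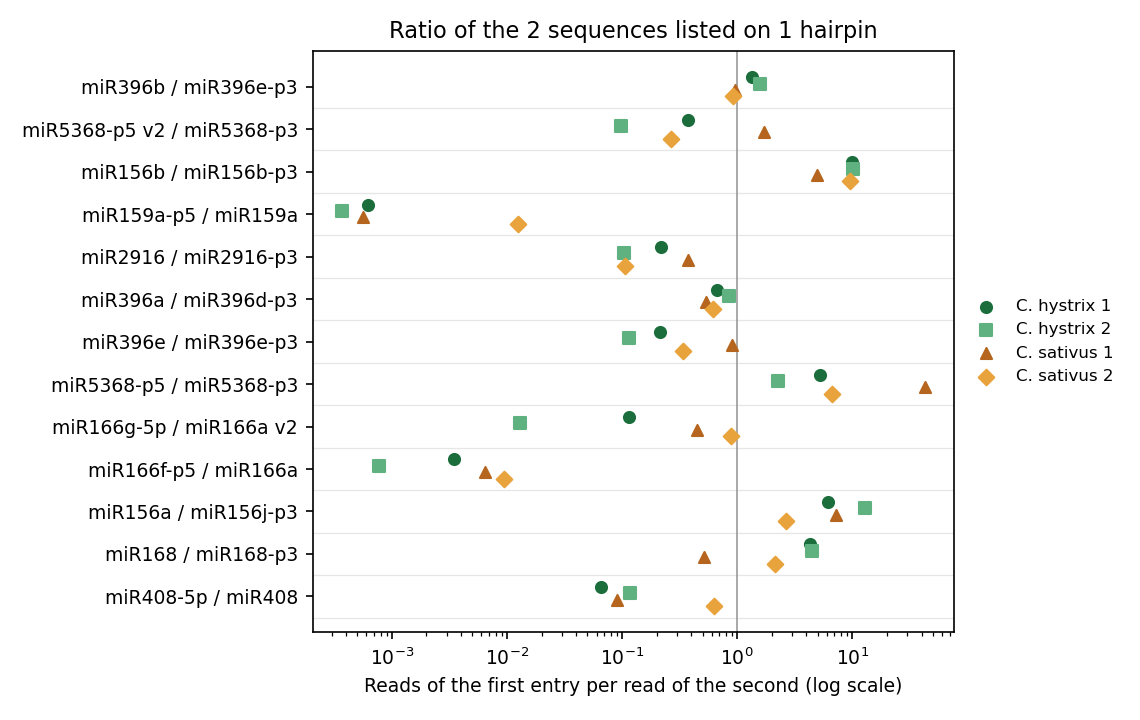
Reads of one entry per read of the other (log axis) for 13 pairs of entries listed on the same hairpin, with 1 symbol per library and a line at equal numbers. The miR168 pair stands at 4.30 and 4.48 in C. hystrix and at 0.517 and 2.15 in C. sativus.

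Grouped by role, no list but leaf growth and the predicted entries held a called entry. The counts that follow are of tested entries, and across all 208 there were 98 above and 110 below a log2 fold change of 0, with the median of -0.11 given above. For the phase-change families miR156 and miR172, 13 entries were above and 6 below 0 (median 0.43, or -0.29 under total-read scaling), and 0 were called. The most abundant, miR156b, had 8896 and 3478 CPM in C. hystrix against 7994 and 1265 CPM in C. sativus. miR172b had 312 and 283 CPM against 269 and 55.7 CPM. Both entries were above C. sativus 2 in both C. hystrix libraries, and miR156b overlapped between the species.

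For the auxin families (miR160, miR167, miR390 and miR393), 11 entries were above and 7 below 0, with a median of 0.63 (-0.25 under total-read scaling) and 0 called. miR167d, which targets auxin response factors of the ARF6 and ARF8 kind, had 11469 and 18190 CPM in C. hystrix against 4870 and 526 CPM in C. sativus (log2 fold change 2.46, SE 1.05, edgeR adjusted p = 0.498). Without C. sativus 1 it was called, at a log2 fold change of 4.81 (edgeR adjusted p = 0.00712), and without C. sativus 2 its log2 fold change was 1.61 (edgeR adjusted p = 0.305). miR167c, which differs from it by G21T, had 1623 and 1226 CPM in C. hystrix against 1461 and 111 CPM in C. sativus and overlapped. miR160a, a regulator of ARF10-type factors, had 60.2 and 70.7 CPM against 33.7 and 0 CPM. miR390d-p3, a predicted arm of the family that starts TAS3 small RNA production, had 283 and 200 CPM against 236 and 0 CPM. The miR393 family ran the other way as a sum of guide and star strands.

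Family sums, scaled and tested apart from single entries, had their own CPM scale and a median log2 fold change of -0.61 over 86 families and unnumbered entries. PC-169-5p, a unit of 1 entry, was the only one called (1.16% higher and 0.0% lower). At an unadjusted p below 0.05, edgeR had 4 higher (4.65%) and 1 lower (1.16%). miR393 summed to 712 and 637 CPM in C. hystrix against 1450 and 4595 CPM in C. sativus (log2 fold change -2.16, SE 0.92, edgeR adjusted p = 0.657). Without C. sativus 1, where 9 units were higher (10.5%) and 10 lower (11.6%), it was called lower, with a log2 fold change of -3.27 (edgeR adjusted p = 0.00171). The miR393 sum joins guide and star strands. On the entry scale, the 2 tested entries with the guide seed of miR393 together had 145 and 578 CPM in C. hystrix. In C. sativus they had 114 and 2895 CPM, so they overlapped. miR168 summed to 1678 and 1043 CPM against 2900 and 3543 CPM (-1.24, SE 0.93, edgeR adjusted p = 0.775). miR164, which limits CUC-type NAC genes at leaf margins, summed to 1305 and 813 CPM in C. hystrix against 661 and 226 CPM in C. sativus (1.25, SE 0.88, edgeR adjusted p = 0.767). miR319, which acts on TCP genes of leaf growth, summed to 2983 and 4346 CPM in C. hystrix, 6608 in C. sativus 1 and 270 in C. sativus 2, the widest gap between the C. sativus libraries among the families plotted.

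**Figure D5:**
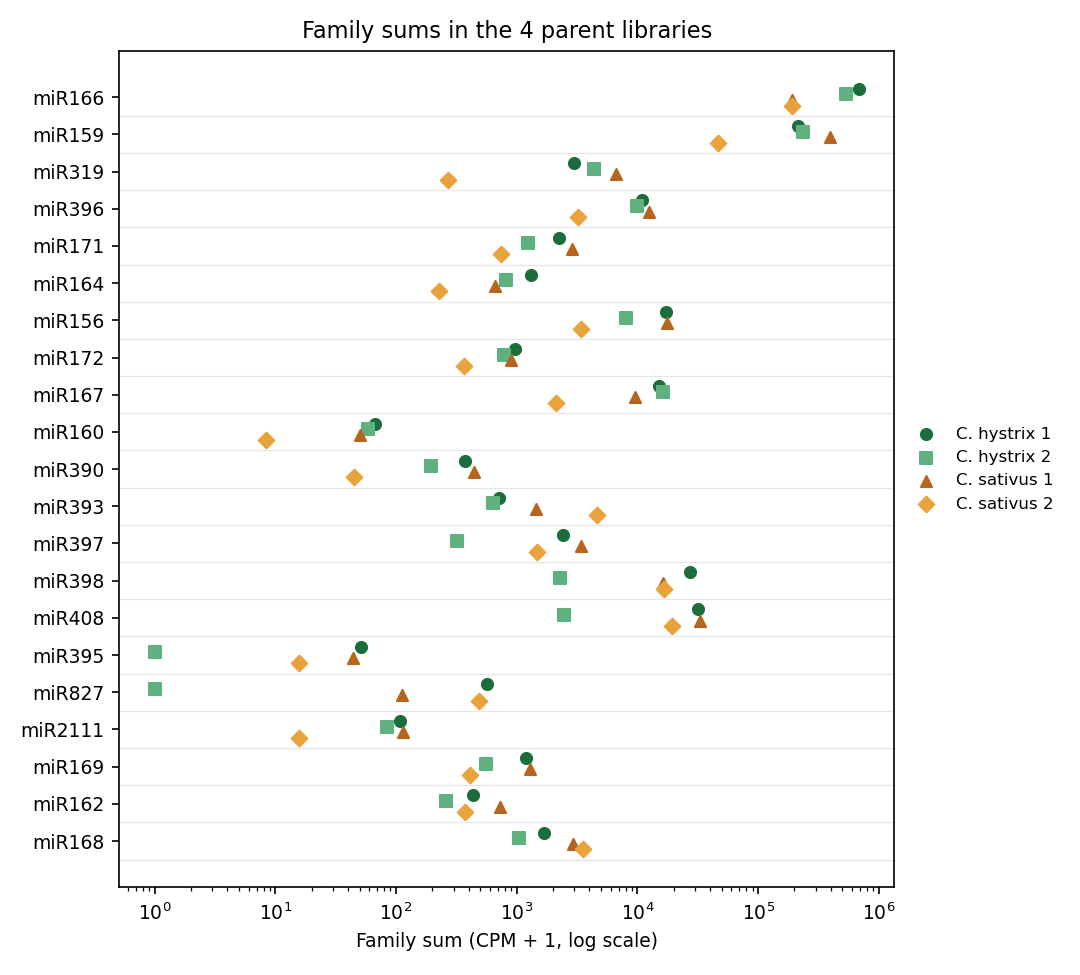
Summed level of 21 conserved families (CPM + 1, log axis), each sequence counted once, with 1 symbol per library. miR166 lies higher in both C. hystrix libraries, miR393 and miR168 lie lower, and miR319 spans 6608 to 270 CPM within C. sativus.

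The leaf growth families (miR159, miR319, miR396, miR164, miR166 and miR171) had 49 tested entries, 29 above and 20 below 0, with a median of 0.39 (-0.49 under total-read scaling) and 1 called, miR166a. They held 78.9% and 80.6% of reads in C. hystrix, against 71.4% and 33.4% in C. sativus. miR159a had 220220 and 305028 CPM in C. hystrix, against 368651 in C. sativus 1 and 26940 in C. sativus 2 (log2 fold change 0.41, SE 0.81). A longer form, miR159b, made up 0.501% and 0.546% of miR159 reads in C. hystrix and 0.249% in C. sativus 1, but 13.2% in C. sativus 2. miR396b had 5329 and 6755 CPM in C. hystrix against 2706 and 476 CPM in C. sativus. miR396e, which differs from miR396b by A7G in the seed, had 850 and 501 CPM in C. hystrix, 2524 in C. sativus 1 and 177 in C. sativus 2.
miR164a had 620 and 436 CPM in C. hystrix against 296 and 15.2 CPM in C. sativus, and miR171c, a regulator of GRAS genes, had 1215 and 766 CPM against 1181 and 55.7 CPM. miR319c had 1619 and 3501 CPM in C. hystrix against 2117 and 30.4 CPM in C. sativus.

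The copper families (miR397, miR398 and miR408, which spare copper by lowering laccases, superoxide dismutases and plantacyanins) had 2 entries above and 8 below 0, a median of -1.22 (-2.30 under total-read scaling) and 0 called. These families took 5.30% of reads in C. hystrix 1 and 0.517% in C. hystrix 2, against 6.18% and 5.18% in C. sativus. Outside the rRNA- and tRNA-like families the shares were 5.97% and 0.599% in C. hystrix, against 7.48% and 12.3% in C. sativus, and did not overlap. miR408 had 31791 and 2930 CPM in C. hystrix against 28529 and 8138 CPM in C. sativus. miR398a had 27692 and 2865 CPM against 14372 and 8401 CPM, and miR397 had 2526 and 419 CPM against 3056 and 860 CPM. All of these guides overlapped, and C. hystrix 2 was the lowest library for each.

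The nutrient families had 9 tested entries above and 1 below 0 (median 0.62, or -0.34 under total-read scaling), 0 called, on few reads. miR827, tied to phosphate transport, had 606 and 0 CPM in C. hystrix against 104 and 314 CPM in C. sativus. miR395a, which acts on sulfate assimilation, had 49.6 and 0 CPM against 26.9 and 10.1 CPM. miR2111a, a shoot signal of nitrogen and phosphate status, had 106 and 100 CPM in C. hystrix against 80.8 and 0 CPM in C. sativus, and miR169f-p3 had 740 and 124 CPM against 360 and 75.9 CPM. Of these 4, miR2111a alone did not overlap between the species. The small RNA machinery families miR162 and miR168 had 1 entry above and 4 below 0 (median -0.32) and 0 called, and miR162, which acts on DCL1, had 411 and 330 CPM in C. hystrix against 613 and 197 CPM in C. sativus. Of the 5 listed entries of families that act on resistance genes, 0 had enough reads to be tested.

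The predicted entries without a family number (287, of which 36 were tested) had 14 above and 22 below 0, a median of -0.36 (-1.21 under total-read scaling) and 1 called, PC-169-5p. They held 1.20% and 1.98% of reads in C. hystrix, against 0.510% and 0.515% in C. sativus. Most of these reads in C. hystrix were PC-169-5p, with 3071 and 4035 reads. With PC-169-5p set aside, both C. hystrix shares fell below both C. sativus shares. Of the 45 tested rRNA- and tRNA-like entries, 11 were above and 34 below 0 (median -0.39, or -1.37 under total-read scaling), and 0 were called. miR5368-p5 had 62303 and 56080 CPM in C. hystrix against 69122 and 117508 CPM in C. sativus, and miR2916-p3 had 23437 and 45505 CPM against 14658 and 100052 CPM. miR894 was nearly level under TMM, with 12454 and 23749 CPM in C. hystrix and 18620 and 18949 CPM in C. sativus. Its log2 fold change was -1.11 under total-read scaling. Under either other scaling, both C. hystrix libraries lay below both C. sativus libraries.

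No miRNA family marks leaf alone, so the labelled tissue was checked only against families seen in other plant parts. Families reported from phloem sap summed to 29708 and 3130 CPM in C. hystrix against 15608 and 11878 CPM in C. sativus, and 0 and 3 against 0 and 1 of their 8 tested entries were at 0 after rounding. Families of shoot apices and leaf primordia summed to 5013 and 7121 CPM in C. hystrix, 7479 in C. sativus 1 and 324 in C. sativus 2, where 5 of 12 tested entries were at 0. These families overlap with the copper, nutrient, auxin and leaf growth lists, and their part in the differences was not tested. In whole leaves, fewer cells of a type and less RNA per cell cannot be told apart.

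What a comparison with a single C. sativus library called depended on which one was kept. Of all 208 tested entries, 38 were at 0 in C. sativus 2 after rounding and 45 belonged to rRNA- and tRNA-like families. Both C. hystrix libraries were above both C. sativus libraries for 39 entries and below them for 26. Of the 47 entries called against C. sativus 2 alone, 14 were at 0 in it after rounding, 6 belonged to rRNA- and tRNA-like families, and 23 were separated from both C. sativus libraries. The other 24 overlapped once C. sativus 1 was considered. miR319c, for example, was called higher at a log2 fold change of 6.38 against C. sativus 2, whereas C. sativus 1, at 2117 CPM, lay between the C. hystrix libraries. miR393c, named after its values were seen, had 24.8 and 53.1 CPM in C. hystrix, 20.2 in C. sativus 1 and 1680 in C. sativus 2. With both C. sativus libraries in the fit, DESeq2 called miR393c lower (log2 fold change -5.14, DESeq2 adjusted p = 0.0168). C. sativus 1 nevertheless lay below both C. hystrix libraries. PC-169-5p was the 1 entry called against either C. sativus library on its own. The widest gaps between the C. sativus libraries, apart from miR390d-p3, were those of miR858b (0 and 202 CPM), miR8155 v2 (3467 and 20.2), miR171b (155 and 0), miR2950-5p (151 and 0) and miR5139 v3 (145 and 0), entries whose C. hystrix levels ran from 17.7 to 687 CPM.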

How the data were processed

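Small RNA of 2 C. hystrix and 2 C. sativus mature leaf libraries was compared, with groups and replicate numbers taken from the sample titles. Per the labels' protocols, total RNA was extracted with TRIzol and sequenced on an Illumina HiSeq; they also mention oligo(dT) beads and describe no small RNA library. The submitters' processing notes name Bowtie 0.12.8. Neither the genome and its build nor the way reads were counted is given in the sources used here.

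The deposited raw reads are treated as estimated counts (80.5% whole within 1e-6) and were rounded to whole numbers. The deposited normalized reads, a signal equal to raw reads times 1 constant per library, served for 1 alternative. The 843 lines gave 733 sequences of 18 to 25 nt, since 101 at several loci (0 with differing values) were taken once; 106 have no position. Whether a value at several loci is a share of the reads is not given, so levels of such entries are not on one scale. The table marks 55 entries as in miRBase, 234 as variants and 444 as new.

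Entries kept by filterByExpr (208, at least 99.5% of reads of each library) were scaled by TMM and tested with edgeR 4.0.16 (R 4.3.3), quasi-likelihood, robust, on the 8 libraries jointly, by group (4 residual degrees of freedom), two-sided, with Benjamini-Hochberg adjustment over the 208 entries or the 86 families. SE is the log2 fold change divided by the square root of F. Scripts were tested on simulated data. Alternatives (20, and 3 chosen after seeing the data) covered scaling, filters, DESeq2 1.42.0, limma 3.58.1, the libraries in the fit, and a replicate block. Named entries were those called, the 8 highest and 8 lowest not overlapping at a mean of 50 CPM or more, the 10 most abundant, the top entry of each listed family, entries in 1 species only (10 reads or more) and the 6 with the widest gap between the C. sativus libraries. The members and lists were chosen with earlier results of these data known.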

Additional observations from a re-analysis of the deposited data

How the results depend on the processing

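PC-169-5p was called higher in every one of the 23 alternatives, and miR166a in 3. The count of 2 higher entries was 1 under RLE, upper-quartile, total-read and outside-family scaling, no filter, the 10-read filter, limma voom, limma on log2 normalized reads, the 4 parent libraries alone, and removal of the rRNA- and tRNA-like families; the cause was not tested. Leaving out 1 library gave 1 to 43 higher and 0 to 4 lower entries, 1 to 9 higher and 0 to 10 lower families, and, of entries found in 1 species only, 1 to 12 for C. hystrix and 0 to 6 for C. sativus. With the rRNA- and tRNA-like families also removed, chosen after seeing the data, there were 25 higher and 5 lower entries and 7 higher and 4 lower families without C. sativus 1, and 1 higher and 0 lower entries without C. sativus 2. That removal left 163 entries and 74 families to test. DESeq2 called 1 entry lower. At least 20 reads in each library left 0 entries for C. hystrix alone. With the replicate block, 3 entries were higher (miR166a, miR166a v2 and PC-169-5p) and 0 lower; the deviations of same-numbered libraries of the 2 species correlated at -0.12, and the labels do not say that numbers pair them. With the C. sativus numbers crossed, chosen after seeing the data, 1 was higher and 0 lower. PC-169-5p and miR166a stayed above 0 in all 23. C. sativus 2 had the fewest listed reads, and 38 of its 208 tested entries were at 0 after rounding. The number at 0 was 5 in C. sativus 1, and 5 and 24 in C. hystrix. One read stood for 5.06 CPM in C. sativus 2 and 5.89 CPM in C. hystrix 2. Whether depth set these zeros was not tested.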

Other observations

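The mature leaves of the allotetraploid were not in the contrast of the parents, though they entered its filter, scaling and spread. They had 3865 and 3649 CPM of PC-169-5p and 357916 and 503973 CPM of miR166a. miR166a v2 had 21503 and 19469 CPM in them, and miR171u-p5 had 31 and 32 reads. miR393b-p3 had 22.4 and 73.0 CPM there. The miR166m sequence, which differs from miR166a by T1G and G3T counted from the 5′ end and is listed without a genome position, was uneven within C. hystrix, with 347 and 6596 CPM against 599 and 359 CPM in C. sativus. It was picked out after its values were seen. Sequences without a genome position held 1.74% and 3.25% of listed reads in C. hystrix, against 3.85% and 7.29% in C. sativus.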
